A study of Mus musculus with 8 samples.

Results

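The comparison described here asks how the response of mouse 3T3-L1 cells to the supernatant of USP2 knockdown cells moved between 3 h and 6 h: which transcripts differed more from the control supernatant at 6 h, which differed by amounts within 2-fold of each other, and which differed less. All 8 one-colour arrays of the series entered it, and so 8 of 8 samples. The quantity is the difference of effects, the knockdown minus control difference at 6 h less the knockdown minus control difference at 3 h. It was computed for 21580 features, 12571 named genes and 9009 unnamed probes, out of 25412 probes well above background on all 8 arrays.

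3T3-L1 is a fibroblast line that can turn into fat-like cells, and here it had been in adipogenic medium for 1 week. Each of the 4 groups held 2 arrays. The sample records give 10% serum for all 8 samples. In the groups 3h_control and 6h_control the cells received, for 3 h or 6 h, the 2-fold diluted culture supernatant of human HL-60 leukemia cells that carried a mock vector. In the groups 3h_USP2KD and 6h_USP2KD the supernatant came from HL-60 cells in which USP2, a ubiquitin-specific protease, was knocked down. All HL-60 cultures had been made macrophage-like by 5 days in Opti medium with PMA, a phorbol ester, at 30 nM, so both supernatants derive from PMA-treated cultures, and the 3T3-L1 cells themselves were not altered genetically in any group. The labels do not say how the knockdown was made, whether it was 1 clone, or whether both arrays of a group received supernatant from a single HL-60 culture. The p-values therefore reflect the spread among these arrays, which may be partly technical.

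The first transcripts to move when a fibroblast or adipocyte meets cytokines or growth factors are immediate early genes such as Fos and Egr1, which need no new protein and whose unstable mRNAs soon fall again. They encode transcription factors and feedback inhibitors, among them the dual-specificity phosphatases, the Sprouty proteins and the Socs proteins, that limit the signal. Secondary response genes, such as the acute phase proteins that IL-6, IL-1 and NF-kB induce through the C/EBP and STAT3 factors, accumulate more slowly and their stable mRNAs last longer.

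Levels are log2 processed signals relative to the 75th percentile of the array, on which 1 unit is a 2-fold change, and errors are standard errors of a limma model that gives each feature 1 spread over all 8 arrays. The 75th percentile of the processed signal lay between 478 and 621 on the 8 arrays, and 50.7% to 55.9% of spots were well above background. Replicates correlated at 0.998 and 0.999 at 3 h and at 0.992 and 0.997 at 6 h, with the largest spread between the 6h_control arrays. Areas with raised signal, found over windows of 7 by 7 spots against the 3 h arrays, held 10.4% and 7.48% of spots on the 6h_control arrays, 4.45% and 0.108% on the 6h_USP2KD arrays and at most 0.0455% on 3 h arrays. The 8 E1A spike-ins, added RNAs that should not differ, had a median difference of effects of 0.26, from -0.03 to 0.35. Their SD of 0.12 is over probes read on the same 8 arrays, so it is not the error of this shift. As an example, replicates of (+)E1A_r60_a97 read 5.20 and 5.05 in 3h_control and 4.93 and 5.14 in 3h_USP2KD. At 6 h they read 4.85 and 4.64 in 6h_control and 5.10 and 4.80 in 6h_USP2KD. The 2 ERCC spike-in probes had differences of -0.21 and -0.01, while the median over all 21580 features was 0.03. On every array, signal well above background was found for all 16 fibroblast markers and for 13 of 20 adipocyte markers, but Adipoq, Cidec, Cd36, Cfd and Slc2a4, which define mature adipocytes, were on no array. Of 15 macrophage and leukocyte markers 6 were above background on all arrays, and Ptprc, Adgre1, Fcgr3, Tyrobp and Laptm5 were on none. Of 14 endothelial and muscle markers 6 were above background on all arrays, and 7, among them Cdh5, Tek, Myh11 and Myod1, were on none.

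At an adjusted p under 0.05 the effect of the supernatant differed between the times for 4 of 21580 features (0.0185%), and in each of these 4 (0.0185%) it was larger at 6 h. The smallest such difference was 1.14 on the log2 scale. In 0 features (0%) was a called effect smaller at 6 h, by limma with Benjamini-Hochberg adjustment. At an unadjusted p under 0.05 the effect was larger at 6 h in 1510 features and smaller in 613. Replicates differed more at 6 h (SD 0.37 and 0.25) than at 3 h (SD 0.18 and 0.15), which by itself favours the class larger at 6 h. How far it does so was not tested. The median standard error of the difference was 0.13 and the median 95% interval reached 0.31 to either side, so that most features could neither be called nor bounded closely. At an unadjusted p under 0.01 the difference of effects was above 0 in 347 features (1.61%) and below 0 in 189 (0.876%), and these shares are the background for the gene groups below.

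The average of the effects at 3 h and 6 h picks genes that differed between the supernatants, whose arrays also lay in different columns of the slide. In this balanced layout the average is uncorrelated with the difference of the effects only if the effects at 3 h and 6 h have equal spread. The SD of replicate differences (control, then knockdown) was 0.18 and 0.15 at 3 h but 0.37 and 0.25 at 6 h. Calling features by the average can therefore favour larger effects at 6 h, and the counts below carry this limit. The average was called higher with knockdown supernatant in 767 features (3.55%) and lower in 352 (1.63%). Of these 1119 features 3 passed the test of the difference, 95 higher and 12 lower ones (together 0.496% of all features) had effects bounded within 2-fold of each other, and 1009 fell in neither class. The bound means that the 95% interval of the difference lay inside 2/3 of the average effect on either side of 0. It does not mean equal effects: in 7 features of this class the interval excluded 0, in 6 with the larger effect at 6 h (Serpinb2, Serpina3f, Dusp6, Thbs1, Ereg and Id1) and in 1, Id3, with the smaller. Among the 1119 features, the difference had an unadjusted p under 0.01 with a larger effect at 6 h in 158 and with a smaller effect at 6 h in 23. Of the 767 features called higher, 588 (76.7%) had the larger effect at 6 h in value. For counts of list members called on average, bounded or larger at 6 h, these shares of 3.55%, 1.63%, 0.496% and 76.7% are the background. The median difference was 0.15 among the features called higher and -0.10 among those called lower. A shift common to all features enters these medians, and its size depends on the scaling. Scaled to the E1A spike-ins, the median difference of all features was -0.20 and that of the higher class -0.08. Then 292 and not 588 of the 767 were above 0. Replicate arrays also differed in their E1A signals, and which scaling is closer was not tested. Relative to the median of all features, the difference was higher in 552 of the 767 and lower in 237 of the 352, with medians of 0.12 and -0.14.

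**Figure D1:**
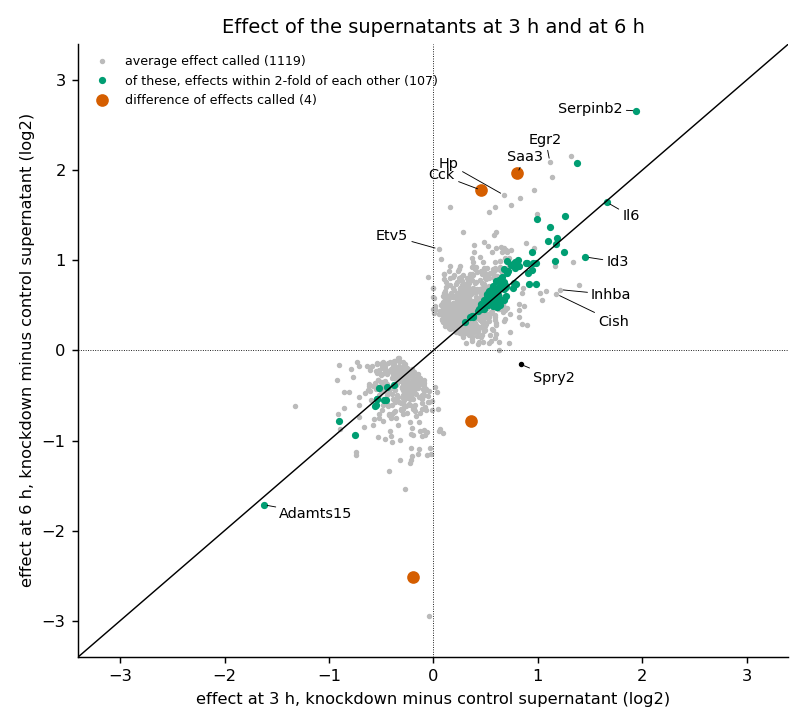
Effect of the supernatant (knockdown minus control, log2) at 3 h on the x axis and at 6 h on the y axis for 1119 features with a called average effect, and for 1 further called probe and Spry2. The diagonal marks equal effects at both times. The features bounded within 2-fold lie on either side of it, Serpinb2 and Serpina3f above it with 2.66 and 2.08 at 6 h. Saa3 and Cck lie farther above it with 1.96 and 1.78, and Cish and Inhba lie below it.

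The named genes whose called effect was larger at 6 h were Saa3 and Cck, both of which encode secreted proteins. Saa3, an acute phase serum amyloid A made by adipocytes and macrophages, had a level of 1.90 on both 3h_control arrays and of 2.74 and 2.67 on the 3h_USP2KD arrays. At 6 h it stood at 2.57 on both control arrays and at 4.50 and 4.57 on the knockdown arrays. The groups did not overlap at either time, and both 6 h knockdown arrays were the highest of the 8. The effect went from 0.80 at 3 h to 1.96 at 6 h, a difference of 1.16 ± 0.087 (95% interval 0.95 to 1.37, adjusted p = 0.0468). Saa3 rose with time in both supernatants, by 0.66 with the control and by 1.82 with the knockdown supernatant. The call rests on few arrays: the adjusted p of Saa3 was 0.211 to 0.546 when any 1 of the 3 h arrays was left out, 0.074 without the first 6h_USP2KD array, and 0.007 and 0.008 without the first or second 6h_control array, and over all alternatives tried it ran from 0.007 to 0.966. The difference itself stayed between 0.93 and 1.27.

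The promoter of Saa3 is shown because the gene led this group and because C/EBP factors act on acute phase promoters. It is the 250 bases before the start of the gene at chr7:46715677-46715926, minus strand of GRCm38.p6, from RefSeq. Capitals mark a match to the C/EBP motif TTGCNNAA on either strand.
Saa3: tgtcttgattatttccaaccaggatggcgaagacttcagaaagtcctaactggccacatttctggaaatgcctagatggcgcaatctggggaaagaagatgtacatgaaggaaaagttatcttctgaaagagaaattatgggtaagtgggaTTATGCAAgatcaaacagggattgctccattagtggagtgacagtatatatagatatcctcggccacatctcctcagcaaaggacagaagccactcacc
The match, TTATGCAA, lies 99 to 92 bases before the start. This motif was found in 9.56% of 32851 promoter windows of the same length. No match to the STAT motif TTCNNNGAA (7.02% of promoters), the AP-1 motif TGANTCA (6.75%), the CRE motif TGACGTCA (1.55%) or the NF-kB motif (3.90%) was in this window.

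Haptoglobin and the other serum amyloids also had larger effects at 6 h in value but did not pass the test. Hp, the plasma haemoglobin scavenger haptoglobin, read 1.51 and 1.57 with control and 2.19 and 2.24 with knockdown supernatant at 3 h, against 2.06 and 1.96 and then 3.71 and 3.76 at 6 h. The groups were apart at both times, and its effect was 0.67 at 3 h and 1.72 at 6 h (difference 1.05 ± 0.095, adjusted p = 0.0833). Saa1, an acute phase serum amyloid of the circulation, had effects of 0.74 and 1.62 (difference 0.88 ± 0.14, adjusted p = 0.211). Its paralog Saa2 had effects of 0.60 and 1.31, and these genes are so alike that their probes may read both. Lcn2, the iron-binding lipocalin 2, had effects of 0.11 and 0.64. Of 26 listed acute phase genes 21 were tested and 12 were called higher on average, 0 lower, and in all 12 the effect was larger at 6 h. In 6 of the 21 the difference was above 0 at an unadjusted p under 0.01 and in 0 below 0, beside 1.61% and 0.876% of all features. The median effect over the 21 genes was 0.25 at 3 h and 0.69 at 6 h. Under scaling to the E1A spike-ins these medians were 0.34 and 0.55, 9 of the 12 had the larger effect at 6 h, and 1 difference was above 0 at an unadjusted p under 0.01. Without the first or the second 6h_control array, or with the 7 by 7 spot areas masked, 12 of the 12 had the larger effect at 6 h and 5 or 6 differences were above 0 at that p. Inside the list Serpina3f, Cebpd and Steap4 were bounded within 2-fold. Cebpd, a C/EBP factor that drives acute phase promoters, had 1.10 and 1.22, Steap4, a metalloreductase, 0.64 and 0.72, and Serpina3f, a serine protease inhibitor, 1.37 and 2.08, with an interval of the difference from 0.40 to 1.01 that excludes 0.

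Cck, the gut and brain peptide cholecystokinin, was the other named gene whose difference was called. Its control arrays read -1.67 and -1.69 at 3 h and -1.08 and -1.03 at 6 h, and its knockdown arrays -1.19 and -1.26 and then 0.65 and 0.80. Both 6 h knockdown arrays stood more than 1 unit above the other 6 arrays. The effect was 0.46 at 3 h and 1.78 at 6 h (difference 1.32 ± 0.10, 95% interval 1.07 to 1.57, adjusted p = 0.0468). Spots around its probe read higher by 0.48 and 0.59 on the 6h_control arrays and by 0.34 and -0.01 on the 6h_USP2KD arrays. With such areas of 7 by 7 spots masked the difference was 1.35 with an adjusted p of 0.085, and that of Saa3 was 1.16 with 0.063, so that neither was called. The adjusted p of Cck was 0.211 to 0.546 when any 1 of the 3 h arrays was left out, 0.064 without the first 6h_USP2KD array and 0.008 without either 6h_control array, and it ran from 0.008 to 0.966 over all alternatives tried.

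The other called features were probes with no gene name here. A_30_P01032379, laid on the array design for chr4:149383134-149451259 of mm9, reverse strand, read -3.84 and -3.94 with control and -4.23 and -3.95 with knockdown supernatant at 3 h. At 6 h it read -1.62 and -1.65 with control and -4.21 and -4.10 with knockdown supernatant, so that only the 6h_control arrays stood apart. The effect went from -0.20 to -2.52 (difference -2.32 ± 0.15, adjusted p = 0.0468). The neighbouring spots also read higher by 0.74 and 0.81 on those 6h_control arrays, and where such areas of 7 by 7 spots were masked this probe gave no value. A_55_P2063876 had effects of 0.36 at 3 h and -0.78 at 6 h, opposite in sign (difference -1.14 ± 0.089, adjusted p = 0.0468). Its difference shrank to -0.45 under normexp background correction. Both calls were lost when any 1 of the 3 h arrays was left out, with adjusted p of 0.067 to 0.355 for A_30_P01032379 and 0.211 to 0.546 for A_55_P2063876, and without the first 6h_USP2KD array, with 0.064 and 0.074. Over all alternatives tried the adjusted p ran from 1.46e-10 to 0.651 and from 0.00824 to 0.966.

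Etv5, Anxa8 and Mrgprd came after Hp in the order of p among named genes with the larger effect at 6 h, and did not pass the test. Etv5, an ETS factor induced by FGF and ERK signals, read 2.85 and 2.69 with control and 2.81 and 2.83 with knockdown supernatant at 3 h, so the groups overlapped there. At 6 h the control arrays were at 1.94 and 2.03 and the knockdown arrays at 3.08 and 3.15, with no overlap. The effect was 0.05 at 3 h and 1.12 at 6 h (difference 1.08 ± 0.11, adjusted p = 0.0963). The control arrays were lower at 6 h than at 3 h by 0.78 and the knockdown arrays higher by 0.29, both called. Its relative Etv4 had effects of 0.16 and 0.93, and a second probe of Etv4 had 0.30 and 1.03. Egr2, an early growth response factor, had effects of 1.12 and 2.09 (difference 0.98 ± 0.13, adjusted p = 0.173). It fell with time in both supernatants, by 1.94 with the control and by 0.96 with the knockdown supernatant. Anxa8, an annexin, had effects of 0.07 and 1.01 (difference 0.94 ± 0.097, adjusted p = 0.0963) and a second probe gave a difference of 0.83. Mrgprd, a G protein-coupled receptor known from sensory neurons, had effects of -0.21 and -1.09 (difference -0.87 ± 0.085, adjusted p = 0.0958). Over all alternatives tried this difference ran from -1.10 to -0.42.

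**Figure D2:**
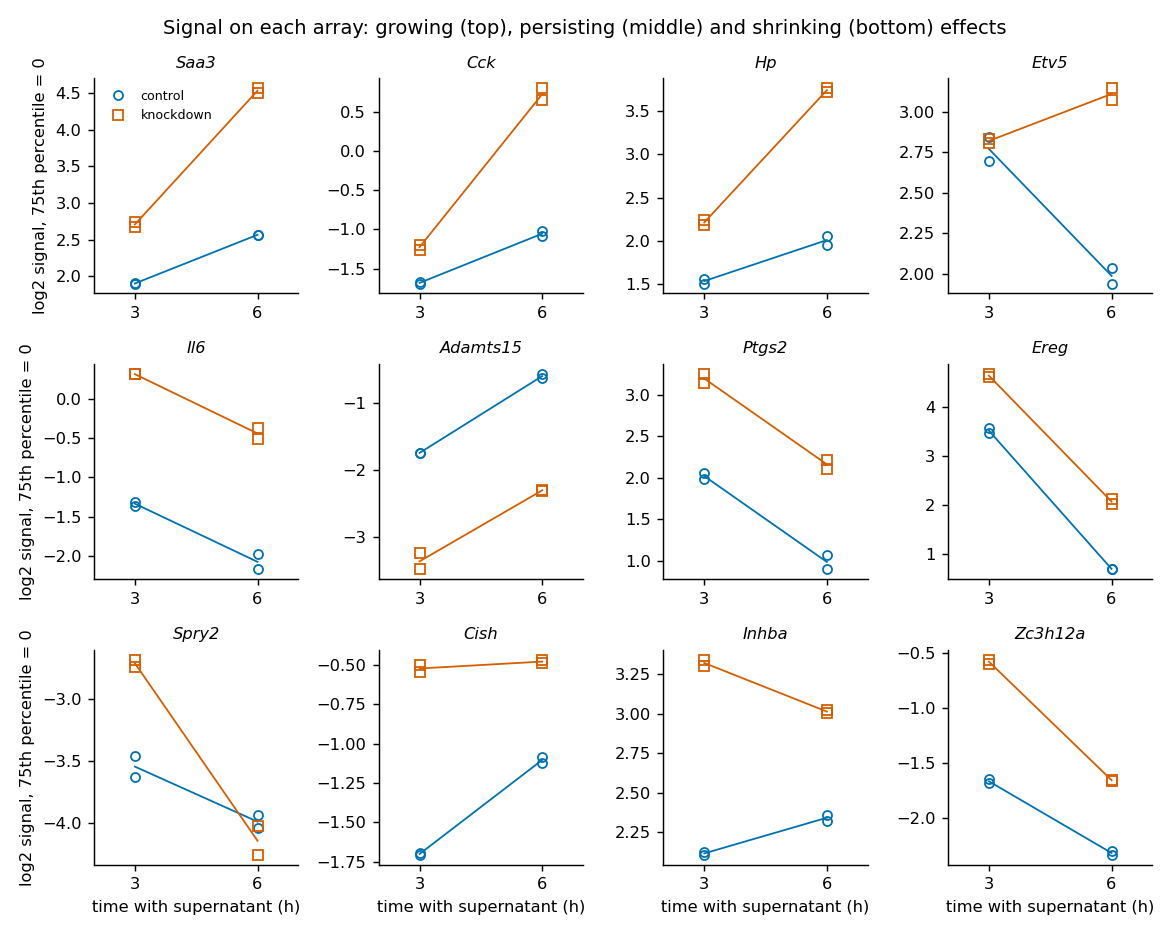
Log2 signal on each array (75th percentile of the array set to 0) against hours with supernatant for 12 genes. Circles are control and squares knockdown arrays, and lines join the means of 2 arrays. In the upper panels the gap between the lines widens to 6 h, in the middle panels it changes little, as for Il6 with 1.66 and 1.64, and in the lower panels it narrows, as for Cish with 1.18 and 0.62.

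The NF-kB feedback genes held 4 members among those at an unadjusted p under 0.01 with a difference above 0 and 0 below 0, out of 21 tested of 24 listed. They were Relb, an NF-kB subunit of the noncanonical arm (0.12 at 3 h and 0.70 at 6 h), Nfkbie, an inhibitor that keeps NF-kB in the cytoplasm (0.11 and 0.66), Tnfaip2 (-0.02 and 0.44) and Rela, the main activating subunit (-0.08 and 0.23). The effects of Nfkbia and Tnfaip3, the classical feedback inhibitors, were 0.28 and 0.40, and 0.30 and 0.24. In 9 of the 21 genes the average was called higher and in 0 lower, and the median effect was 0.17 at 3 h and 0.29 at 6 h, an order that turned to 0.26 and 0.15 under scaling to the E1A spike-ins, where 0 genes had an unadjusted p under 0.01. None of the 9 was bounded within 2-fold.

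The list of the plasminogen system and coagulation had a median effect of 0.18 at 3 h and 0.16 at 6 h, or of 0.27 and 0.02 under scaling to the E1A spike-ins. Plaur, the receptor of urokinase, had effects of 0.58 and 1.29, and F3, the coagulation starter tissue factor, had effects of opposite sign, -0.47 and 0.12, the smaller at 6 h. Serpinb2, an inhibitor of urokinase, was in the same list with 1.94 and 2.66 and had the largest average effect of the bounded class. In this list of 17 genes 14 were tested, 3 had a difference above 0 at an unadjusted p under 0.01 and 0 below 0; the counts were 0 and 1 under E1A scaling and 0 and 0 without scaling. The 5 called higher on average had the larger effect at 6 h under each scaling tried, beside 76.7% of all features called higher. Among matrix proteases and their inhibitors Mmp10, the protease stromelysin-2, had 1.32 and 2.15, Adamts4, an aggrecanase, 0.24 and 0.61, and Timp1, a metalloprotease inhibitor, 0.37 and 0.68. Slc39a14, a zinc and iron importer that IL-6 induces in liver, had 0.39 and 1.17. Ccl2, the monocyte chemokine, had 0.56 and 1.10, whereas Cxcl1, a neutrophil chemokine, had 0.82 and 0.37.

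The list of activin, TGF-beta and YAP target genes was mixed. Of 25 genes, all tested, 3 had a difference above 0 and 2 below 0 at an unadjusted p under 0.01. These counts were 0 and 0 under scaling to the E1A spike-ins, and also without scaling. The median effect was 0.15 at 3 h and 0.20 at 6 h, or 0.24 and 0.06 under E1A scaling. In this list 4 genes were bounded within 2-fold. Pmepa1, a feedback inhibitor of TGF-beta receptors, had effects of 0.42 and 0.87, and Ankrd1, a YAP target, had 0.06 and 0.43. The matricellular YAP targets Ccn2 and Ccn1 persisted with 1.26 and 1.49, and with 0.90 and 0.97.

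The persistent class of 95 features higher and 12 lower with knockdown supernatant held 81 named genes, 70 higher and 11 lower. The class favours large and precise effects by its construction, with a median average of 0.64 beside 0.39 over all 1119 features. Il6, the cytokine that starts the acute phase response, read -1.31 and -1.36 with control and 0.32 and 0.33 with knockdown supernatant at 3 h. At 6 h it read -1.99 and -2.18 with control and -0.51 and -0.36 with knockdown supernatant. The groups were apart at both times, and the effects of 1.66 and 1.64 differed by -0.01 ± 0.12 (95% interval -0.31 to 0.28). With bright areas of 7 by 7 spots masked the Il6 difference was -0.09, and over all alternatives tried it ran from -0.24 to 0.12. Il6 fell by a like amount in both supernatants, by 0.74 with the control and by 0.76 with the knockdown supernatant.

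The promoter of Il6 is shown as the example of a persistent effect, 250 bases at chr5:30012864-30013113, plus strand of GRCm38.p6, from RefSeq. Capitals mark, from left to right, matches to the AP-1, C/EBP and NF-kB motifs.
Il6: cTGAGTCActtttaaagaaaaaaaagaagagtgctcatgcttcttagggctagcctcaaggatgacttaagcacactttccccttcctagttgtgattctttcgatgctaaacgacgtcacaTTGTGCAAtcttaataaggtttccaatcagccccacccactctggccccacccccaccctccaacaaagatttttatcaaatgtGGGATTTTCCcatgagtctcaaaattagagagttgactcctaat
The AP-1 match TGAGTCA lies 249 to 243, the C/EBP match TTGTGCAA 128 to 121 and the NF-kB match GGGATTTTCC 44 to 35 bases before the start.

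The persistent class also held feedback inhibitors and immediate early genes, some of which fell with time in both supernatants. Ptgs2, the inducible prostaglandin synthase, had effects of 1.18 at both times (difference 0.00 ± 0.13) and fell by 1.04 in both supernatants. Ereg, the EGF receptor ligand epiregulin, read 3.56 and 3.47 with control and 4.67 and 4.60 with knockdown supernatant at 3 h, and 0.71 and 0.70 against 2.03 and 2.13 at 6 h. Its effects were 1.12 and 1.37, although it fell by 2.81 with the control and by 2.56 with the knockdown supernatant. Hbegf, another EGF receptor ligand, had effects of 1.17 and 0.99. The orphan receptor Nr4a1 had 1.19 and 1.25, the cytokine signalling inhibitor Socs3 had 1.25 and 1.09, and Fos had 0.95 and 0.89. Id3, an inhibitor of bHLH factors, lay near the edge of the class with 1.46 and 1.04 (difference -0.42 ± 0.094). Of the ERK feedback inhibitors, 15 listed and 12 tested, 5 were called higher on average and 4 of them were bounded: the phosphatases Dusp6 (0.99 and 1.45) and Dusp4 (0.78 and 0.98), the EGF receptor inhibitor Errfi1 (0.60 and 0.77) and Spred2 (0.52 and 0.55). Of the other immediate early genes, 22 tested of 24 listed, 12 were called higher and 1 lower on average and 6 were bounded. Of the AP-1 factors, 9 tested of 11, 5 were called higher and 2, Fos and Maff, were bounded, beside 3.55% called higher and 0.496% bounded among all features. The growth and angiogenic factors Fgf7 (0.53 and 0.66), Gdnf (0.61 and 0.62), Bdnf (0.49 and 0.46) and Pdgfb (0.98 and 0.74) were bounded, 4 of 19 tested.

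In most of the persistent genes the level itself was not the same at both times. Of the 70 named persistent genes that were higher with knockdown supernatant, 50 had lower values at 6 h than at 3 h in both supernatants, 42 of them called in both, and 16 had higher values in both. Lower values in both supernatants were also found in 462 of all 767 features called higher on average, 350 of them called in both. Under the other scalings 40 to 52 of the 70 were lower in both. The median change of the 70 from 3 h to 6 h was -0.41 with the control and -0.50 with the knockdown supernatant. Over all features tested these medians were -0.06 and -0.09. How many of all features were lower in both supernatants was not counted. Of the 11 named persistent genes that were lower, 10 had higher values at 6 h in both supernatants, as had 223 of all 352 features called lower. Adamts15, a matrix protease, was the strongest of these: it read -1.74 and -1.75 with control and -3.49 and -3.25 with knockdown supernatant at 3 h, and -0.62 and -0.56 against -2.31 and -2.30 at 6 h. Its effects were -1.63 and -1.71, but spots around its probe read higher by 0.72 and 0.51 on the 6h_control arrays and by 0.41 and 0.12 on the 6h_USP2KD arrays, and where such areas of 7 by 7 spots were masked the gene gave no value. In 104 features called higher on average the difference was above 0 at an unadjusted p under 0.01. Their median change with time was -0.25 with the control and 0.31 with the knockdown supernatant. The order of these medians follows from the picking, because the difference is the knockdown change less the control change. RNA was taken from whole cultures, so a change in the number of responding cells and a change in RNA per cell cannot be told apart.

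**Figure D3:**
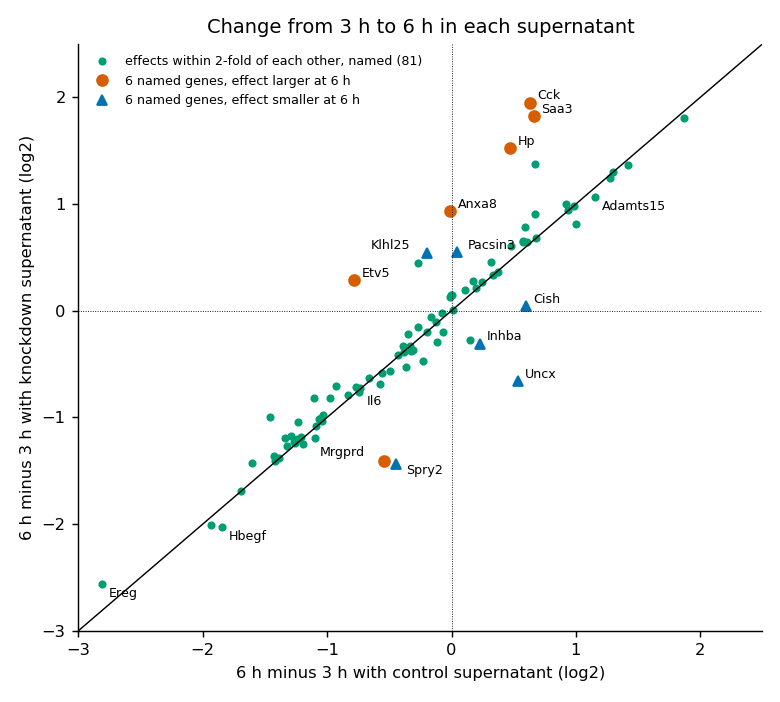
Change from 3 h to 6 h (log2) with control supernatant on the x axis and with knockdown supernatant on the y axis. Points on the diagonal had equal effects at both times; the 81 named persistent genes lie on either side of it, mostly in the lower left, as Ereg with -2.81 and -2.56, and Serpina3f lies above it with 0.67 and 1.38. Saa3, Cck and Hp lie farther above it and Cish and Inhba below it.

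Effects that were smaller at 6 h did not reach the threshold in any gene, so the following are values only. The 6 named genes with the smallest p in this direction had adjusted p of 0.211 to 0.214. Cish, a STAT5-induced Socs protein that damps cytokine receptors, read -1.69 and -1.71 with control and -0.50 and -0.55 with knockdown supernatant at 3 h, and -1.12 and -1.08 against -0.49 and -0.47 at 6 h. The groups were apart at both times, and the effect was 1.18 at 3 h and 0.62 at 6 h (difference -0.55 ± 0.083). The control arrays were higher by 0.60 at 6 h, and the knockdown arrays by 0.04. Inhba, the subunit of the TGF-beta family ligand activin A, read 2.10 and 2.12 with control and 3.34 and 3.30 with knockdown supernatant at 3 h, and 2.36 and 2.32 against 3.00 and 3.03 at 6 h. Its effect was 1.21 and 0.67 (difference -0.54 ± 0.082). Spots around the Inhba probe read higher by 0.27 and 0.56 on the 6h_control and by 0.24 and 0.08 on the 6h_USP2KD arrays, and with such areas of 7 by 7 spots masked the difference was -0.55. Spry2, a Sprouty inhibitor of receptor tyrosine kinase signals, was dim and had effects of 0.84 and -0.15 (difference -0.99 ± 0.15), with overlapping groups at 6 h. Its difference was -0.43 under normexp background correction, and it was called without the second 6h_control array (adjusted p = 0.046) and under scaling to the E1A spike-ins (adjusted p = 0.039).

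The promoter of Inhba is shown as the example of an effect with the lower value at 6 h, 250 bases at chr13:16011601-16011850, plus strand of GRCm38.p6, from RefSeq. Capitals mark the 1 match found, to the C/EBP motif.
Inhba: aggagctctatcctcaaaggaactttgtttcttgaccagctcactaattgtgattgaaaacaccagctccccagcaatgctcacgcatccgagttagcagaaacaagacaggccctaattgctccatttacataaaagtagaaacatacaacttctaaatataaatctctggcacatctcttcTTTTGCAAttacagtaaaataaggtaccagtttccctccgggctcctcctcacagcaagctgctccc
The match TTTTGCAA lies 67 to 60 bases before the start. The promoter window of Cck was searched too and held 0 matches to the 5 motifs.

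The remaining 3 genes of this order changed sign between the times and none had a called average. Uncx, a homeobox factor near the lower end of the signal range, had effects of 0.63 and -0.56, and Pacsin3, a membrane-bending protein of endocytosis, had -0.31 and 0.19. Klhl25, an adaptor of a ubiquitin ligase, had -0.38 and 0.36 (difference 0.74), while its other probe had a difference of -0.45 ± 0.53. Zc3h12a, the endonuclease Regnase-1 that cleaves inflammatory mRNAs, had effects of 1.08 and 0.66 (difference -0.42 ± 0.083), and Zfp36, the mRNA-destabilising protein tristetraprolin, had 1.39 and 0.73 (difference -0.66 ± 0.17). Neither passed the test. They were the only 2 of 10 tested mRNA stability genes with a difference below 0 at an unadjusted p under 0.01, and 0 were above 0; under the other scalings 0 to 2 were below 0. The median effect of this list was 0.20 at 3 h and 0.21 at 6 h. Rgs2, a G protein regulator, had 0.37 and -0.36, and Rsad2, the antiviral protein viperin, had 0.53 and 0.09. Rsad2 was also the only one of 24 tested interferon response genes (27 listed) with a called average, and the median effect of that list was 0.09 at 3 h and -0.09 at 6 h, the latter 0.09 when arrays were scaled to their median. Fosb, an AP-1 factor, had 1.08 and -0.14 with a wide error (difference -1.22 ± 0.28, adjusted p = 0.353).

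**Figure D4:**
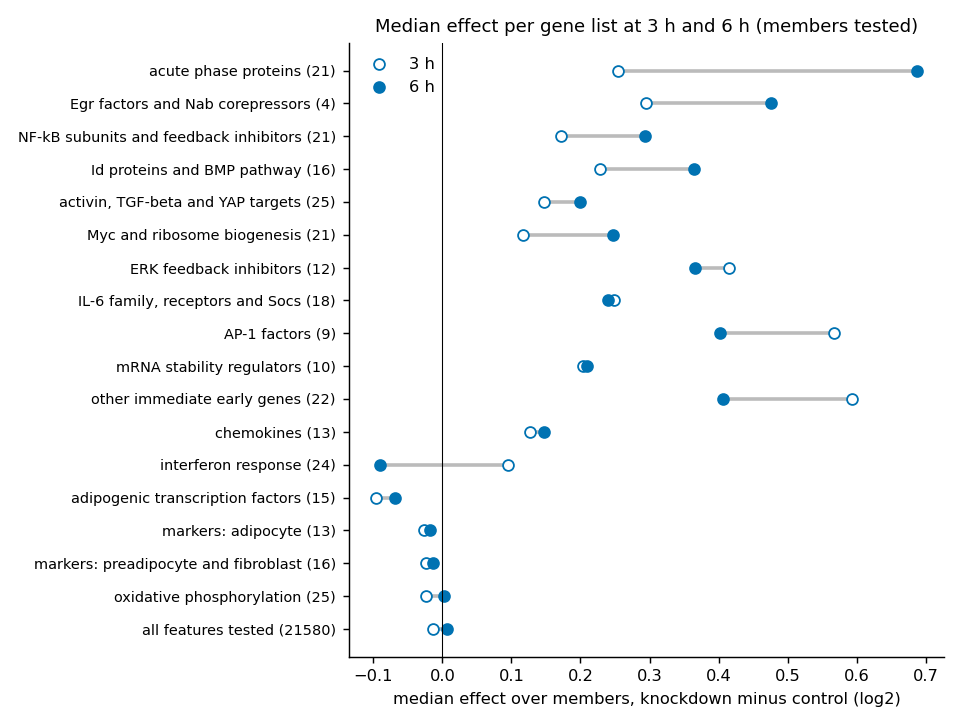
Median effect over the tested members of each gene list (number in brackets), knockdown minus control (log2), at 3 h (open) and 6 h (filled). The acute phase list moves from 0.25 to 0.69, and oxidative phosphorylation and all features lie near 0. The medians of the AP-1 and other immediate early lists lie higher at 3 h, under each scaling tried. The median of the differences per gene was 0.03 for AP-1 and -0.09 for the other immediate early genes. Of 5 AP-1 genes called on average 3 had the larger effect at 6 h and 2 the smaller.

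Several gene groups had little effect at either time. They were 25 tested oxidative phosphorylation genes, 24 cytosolic ribosomal proteins, 15 collagens, 18 fatty acid oxidation genes and 18 mitosis genes. None of these had a called average or a difference at an unadjusted p under 0.01. Over all features 3.55% and 1.63% were called higher and lower on average. A further 1.61% and 0.876% had a difference above and below 0 at that p, so 0 in lists this small lies near the background. The median differences of these lists lay between -0.07 and 0.03. Scaled to the E1A spike-ins they were -0.29 for ribosomal proteins, -0.28 for collagens and -0.24 for fatty acid oxidation and mitosis, beside -0.20 for all features. Among 15 tested adipogenic transcription factors Zfp423, which commits cells to the adipocyte lineage, had effects of -0.22 and -0.92 (difference -0.70 ± 0.13, adjusted p = 0.290). Pparg, the master adipogenic factor, had -0.10 and -0.07, with a 95% interval of the difference from -0.17 to 0.23. Fabp4, the adipocyte fatty acid carrier, had 0.07 and -0.01, with an interval from -0.29 to 0.14. The mouse Usp2 gene itself had 0.13 and 0.00, with an interval from -0.48 to 0.21; the knockdown was in the human cells, so this checks no label. The median difference over the 13 tested adipocyte markers was 0.01, over the 16 fibroblast markers -0.03, over the 6 tested macrophage and leukocyte markers -0.17 and over the 6 tested endothelial and muscle markers -0.28. In the last list 1 gene was below 0 at an unadjusted p under 0.01, and its median was -0.04 without the first and -0.47 without the second 6h_control array.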

How the data were processed

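Total RNA of 8 3T3-L1 cultures (0.1 ug each, Cy3) was measured on 8 one-colour arrays of 1 slide; the number of arrays limits the precision. The authors' deposited scanner output holds per spot a background-subtracted processed intensity, per the file headers, and the submitters' processing notes name Agilent Feature Extraction 10.7.3.1. A deposited value table holds log2 values (correlation 1.00 with the scaled signals used here, shifted by 0.22 to 0.26 per array); what its scale was set to is not given in the sources used here.

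Groups came from the sample labels. Each array had 59305 non-control spots, 0 saturated, and 163 to 319 spots marked as outliers were left out. The 75th percentile of log2 processed intensity was subtracted per array and spots of 1 of 55681 probes were averaged. Through RefSeq names (GRCm38.p6, names only), 27235 probes were named by transcript, 13 by symbol, and 28433 stayed unnamed. Probes well above background on all 8 arrays were kept, and the brightest probe stood for a gene. The 4 group means were estimated with limma 3.58.1 (lmFit and eBayes, R 4.3.3; 4 residual and 2.43 prior degrees of freedom), with Benjamini-Hochberg adjustment over 21580 features, and checked on simulated data. Tables used Python 3.11.15, numpy 2.4.6 and pandas 2.3.3, figures matplotlib 3.10.9.

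Control arrays lay in slide columns 1 and 2, knockdown arrays in 3 and 4, and each time filled 1 row. Additive row and column offsets cancel in the difference of effects, but local bright areas do not. Column offsets do not cancel in the average effect or the effect at each time, nor row offsets in the changes with time. Supernatant and column, and time and row, therefore cannot be told apart in those values. Replicate numbers did not pair the samples (correlations of deviations -0.10 to 0.17). The members and the 50 lists (870 genes) were chosen with earlier results of these data known. Named genes were the called ones in each direction filled up to 6 by smallest p, the 12 largest averages of the persistent class, per list the 3 smallest p and 2 largest averages, and 10 preset genes. Other list members and the called unnamed probes were named after their values were seen. Alternatives were other scalings, normexp (offset 50) on median spot intensity, because no mean spot intensity was used, the value table, other filters, probes singly, masks, array weights, a replicate block and leaving out each array. Spike-in scaling and the 7 by 7 mask were added after seeing the data. Promoters are RefSeq windows cut to the 250 bases before the start, matched by symbol; all 4 looked up (Saa3, Cck, Il6, Inhba) were found and 3 are printed.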

Additional observations from a re-analysis of the deposited data

Results flagged for a closer look

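For 4 features the test of the difference itself, the interaction of supernatant and time in limma, was past the threshold. Each had an adjusted p of 0.0468 and no overlap between array-pair effects at 3 h and 6 h. Such effects were apart in 5712 of all 21580 features, and in 616 of the 1119 with a called average. The difference of effects (6 h less 3 h) was 1.16 for Saa3, 1.32 for Cck, -2.32 for the probe A_30_P01032379 and -1.14 for the probe A_55_P2063876. Over the alternatives that gave a value, the difference lay between 0.93 and 1.27 for Saa3, 1.10 and 1.43 for Cck, -2.54 and -1.26 for A_30_P01032379, and -1.37 and -0.45 for A_55_P2063876. All 4 kept their sign, and they were called under 6, 6, 9 and 6 of these alternatives.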

How the results depend on the processing

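The number of called differences changed with most settings. It was 4, as reported, under the 75th percentile of probes above background on all arrays and with bright patches masked, and 5 under normexp. It was 0, with 0 larger at 6 h, under array median, quantile normalization, both other filters, probes singly, array weights and the 7 by 7 mask. It was 1 with the value table and 2 without scaling (0 above 0), all larger at 6 h. Scaled to E1A spike-ins it was 197, of which 22 were above 0 and 175 below 0 against 2 and 2 as reported; 185 were larger and 12 smaller at 6 h. With normexp 4 were above 0 and 1 below. With the replicate block 0 were called, 0 of them larger at 6 h, and the average was called in 869. Leaving out 1 array gave 0 to 354 calls, 0 to 343 larger and 0 to 12 smaller at 6 h: 218 without the first 6h_control array (23 above 0), 354 without the second (164 above 0), 37 without the second 6h_USP2KD array, 3 without the first, 2 without the second 3h_control array and 0 without the others.

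The average was called in 1119 features, in 2211 under array median, 216 without scaling, 75 without a filter, 513 under E1A spike-ins and 353 to 2661 with 1 array left out. The persistent class held 95 higher and 12 lower features, and in all 9 without scaling, 31 without a filter, 5 under E1A spike-ins, 64 to 105 with 1 array left out and 75 to 116 otherwise. Of 188 genes and probes followed over 22 alternatives, 135 kept the sign of their difference under all. With 2 arrays a group, a difference under about 0.31 on the log2 scale lay within the median 95% interval.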

Other observations

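Several transcripts outside the groups above had effects that differed in size between the times without passing the test. Igfbp5, an IGF binding protein, had effects of 0.07 at 3 h and -0.87 at 6 h (difference -0.94 ± 0.13, limma adjusted p = 0.211), and its level with time was higher by 0.34 with control and lower by 0.60 with knockdown supernatant. Wnt4, a Wnt ligand, had -0.22 and -0.80, and Angpt1, an angiopoietin, had 0.02 and -0.43. Dbp, a clock output factor, had -0.36 and -0.75, and Bhlhe41, a clock repressor, had -0.43 and 0.10. In the Notch pathway the target Hes1 had 0.05 and 0.82 and the effector Rbpj -0.07 and 0.31, while the ligand Jag1 had 0.60 and 0.19. Over all alternatives tried the difference of Hes1 ran from 0.22 to 0.95. Rgs16, a regulator of G protein signals, had 1.14 and 1.92.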
